A study of Mus musculus with 12 samples.

Results

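The renin-angiotensin and endothelin systems were followed through 9 genes in primary adventitial fibroblasts of the mouse aorta. They are *Agt*, *Ace*, *Agtr1a* and *Agtr2* of the angiotensin system, *Edn1*, *Ece1*, *Ednra* and *Ednrb* of the endothelin system, and *Npr3*, a receptor of the natriuretic peptides. They were taken by gene symbol, and all 9 were found among the 54352 symbols of the count table. The fibroblasts grew out of the adventitia, the outer layer of the vessel wall, of the ascending or the descending aorta of wild-type C57Bl/6 mice aged 14 weeks according to the sample labels, and were passaged 1 time. Cultures of each site received solute control or mouse TGFβ at 10 ng/mL for 48 h. This gave 4 groups (descending control, descending TGFβ, ascending control and ascending TGFβ) of 3 RNA-seq libraries each, 12 in all. The study's methods state that the mice were male, but give another age, and its results give another number of passages. No source says whether libraries of a group came from separate mice or cultures, so the p-values measure the spread between these libraries, which may be technical.

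Angiotensinogen, the product of *Agt*, is cut by renin to angiotensin I, and the angiotensin-converting enzyme *Ace* turns that into angiotensin II. Angiotensin II acts on type 1 receptors (*Agtr1a* and *Agtr1b* in rodents), which raise blood pressure and promote growth and matrix production, and on the type 2 receptor (*Agtr2*), which often opposes them. Endothelin-1 (*Edn1*) is released as an inactive precursor that endothelin-converting enzyme 1 (*Ece1*) cleaves, and acts on the type A receptor (*Ednra*), the contractile receptor of smooth muscle, and the type B receptor (*Ednrb*), which in vessels is best known from endothelium and also clears the peptide. *Npr3* binds natriuretic peptides and removes them from the circulation. TGFβ is the growth factor that turns fibroblasts into contractile, matrix-producing myofibroblasts.

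The count totals were between 18793120 and 23892943 in 11 libraries, and 16250126 in descending control replicate 3. That library stood apart. Mitochondrial genes took 11.02% of its counts against 0.703 to 1.03% in the other 11, and 13031 genes had a count against 19337 to 20931. *Agt* and *Ednrb* had 0 counts in it. TGFβ and site tests of the 9 genes that rest on the descending control group are therefore given with all 3 of its libraries and, in the text or the plots, again without replicate 3. Levels are normalized CPM, counts scaled by library total and edgeR's TMM factors. A count of 3 was taken as the floor of a library, which came to between 0.117 and 0.207 normalized CPM and covers counting error only. Differences are log2 fold changes ± SE, tested by quasi-likelihood in edgeR and adjusted by Benjamini-Hochberg over all genes tested, and a gene was called at an adjusted p under 0.05.

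The sequences upstream of *Ednra*, *Ednrb* and *Edn1* are shown because the endothelin receptors moved in opposite directions with TGFβ while the ligand differed between sites. TGFβ signals through SMAD proteins, whose core motif is CAGAC, or GTCTG on the other strand. Capitals mark it. For *Ednrb* and *Edn1* the 250 bases end just before a RefSeq transcript start (GRCm38.p6). For *Ednra* the window was cut at the first base annotated as exon, short of the RefSeq start, which left 238 bases. All bases are written 5′ to 3′ on the strand of the gene. They lie at chr8:77724465-77724702 on the minus strand for *Ednra*, at chr14:103843702-103843951 on the minus strand for *Ednrb*, where the bases fall within the first intron of a longer *Ednrb* transcript, and at chr13:42301226-42301475 on the plus strand for *Edn1*.
Ednra: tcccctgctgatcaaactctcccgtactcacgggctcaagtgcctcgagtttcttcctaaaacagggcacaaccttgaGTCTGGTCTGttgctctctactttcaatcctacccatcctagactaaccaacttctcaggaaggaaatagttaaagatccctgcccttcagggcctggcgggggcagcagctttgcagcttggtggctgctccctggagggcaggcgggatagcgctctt
Ednrb: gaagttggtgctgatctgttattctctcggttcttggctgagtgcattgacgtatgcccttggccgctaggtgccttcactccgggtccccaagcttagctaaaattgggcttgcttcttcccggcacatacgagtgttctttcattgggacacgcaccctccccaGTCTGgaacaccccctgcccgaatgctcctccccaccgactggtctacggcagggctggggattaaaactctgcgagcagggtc
Edn1: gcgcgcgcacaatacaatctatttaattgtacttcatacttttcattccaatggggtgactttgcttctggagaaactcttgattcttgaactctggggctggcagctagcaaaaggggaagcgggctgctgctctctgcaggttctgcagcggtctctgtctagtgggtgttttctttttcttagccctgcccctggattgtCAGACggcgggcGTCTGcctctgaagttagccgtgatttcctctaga
The motif occurred 2 times upstream of *Ednra*, 1 time upstream of *Ednrb* and 2 times upstream of *Edn1*. It is short, and 42.2% of 32851 RefSeq promoters hold it within 250 bases. The AP-1 motif TGANTCA, read on both strands, occurred in none of the 12 upstream windows of the 8 members with an entry, against 6.75% of promoters, and neither motif overlaps the other here. *Agtr1a* had no entry. A match is a description of these letters only.

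**Figure D1:**
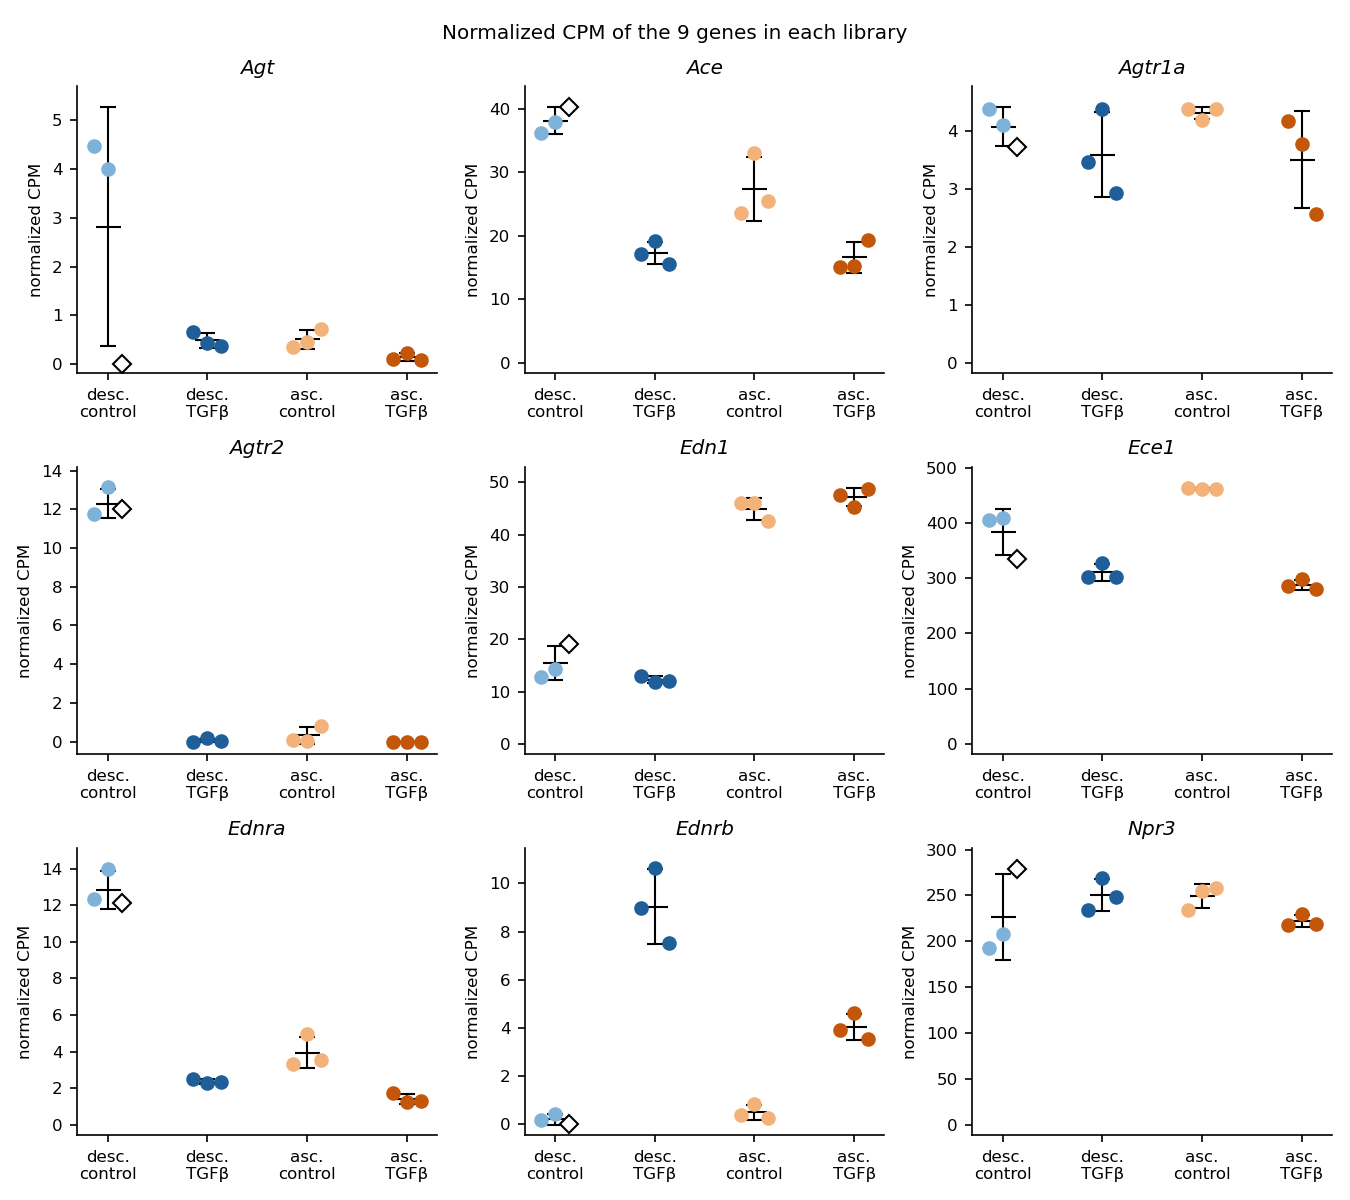
Normalized CPM (y axis, linear) of each gene in the 12 libraries. Points are libraries, the bar and whiskers are the mean and SD of the 3 libraries of a group, and the open diamond is descending control replicate 3. *Agtr2* was between 11.7 and 13.1 in descending control and no higher than 0.828 in any other library, and *Ednrb* was between 3.55 and 10.6 in the TGFβ libraries and no higher than 0.849 in the control libraries.

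Per kilobase of exon, the scale on which genes can be compared, *Ece1* had the highest level of the 9 genes in every group. Its mean was 87.2 normalized CPM per kb in ascending control, 72.2 in descending control, 58.5 in descending TGFβ and 54.4 in ascending TGFβ (n = 3 each). *Npr3* followed at 23.7 to 26.7 as a group mean and *Edn1* at 5.75 to 22.1. *Ace* lay between 3.14 and 7.22, and *Agtr1a* between 1.26 and 1.55. In descending control *Ace* was level with *Edn1* (7.22 against 7.20), and above it without replicate 3 (7.01 against 6.35). The remaining 4 genes were low in at least 1 group, with group means on this scale of 0.0772 to 1.49 for *Agt*, 0 to 3.70 for *Agtr2*, 0.260 to 2.34 for *Ednra* and 0.0460 to 2.12 for *Ednrb*.

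The first question was what TGFβ did at each site. In ascending fibroblasts, 7 of the 9 genes passed the filter on low counts and 5 were called, 1 higher (*Ednrb*) and 4 lower (*Ace*, *Ece1*, *Ednra* and *Npr3*). That comparison called 55.8% of all 13917 genes tested, 28.2% higher and 27.6% lower, so being called there sets no gene apart. In descending fibroblasts, all 9 were tested and 4 were called, *Ednrb* higher and *Ace*, *Agtr2* and *Ednra* lower, against 8.07% of 13825 genes, 3.59% higher and 4.48% lower. Without descending control replicate 3, 7 were called (2 higher, 5 lower), against 52.9% of 14311 genes.

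**Figure D2:**
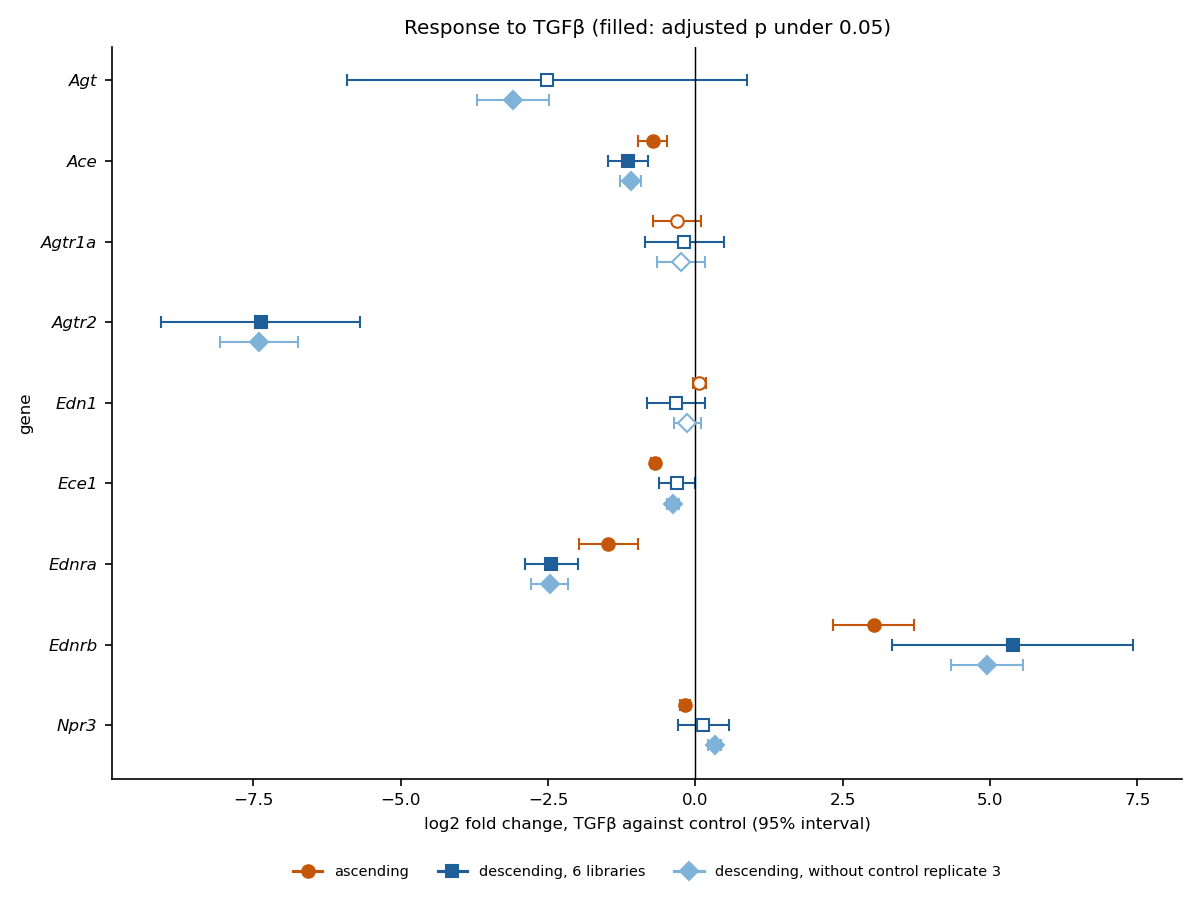
Log2 fold change with TGFβ against control (x axis) for each gene (y axis), with its 95% interval, in ascending fibroblasts and in descending fibroblasts with and without descending control replicate 3. Filled symbols passed an adjusted p of 0.05, and a gene with no symbol was not tested. *Ednrb* lies to the right and *Ace* and *Ednra* to the left of 0 in all 3 fits.

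The second question was how the sites differed. In control cultures, 8 of the 9 genes were tested and 2 were called, *Edn1* higher and *Ednra* lower in ascending fibroblasts, against 2.65% of 14090 genes (1.19% higher, 1.47% lower). Without descending control replicate 3, all 9 were tested and 7 were called, 3 higher and 4 lower, against 31.6% of 14644 genes. With TGFβ, 5 of 7 genes tested were called, *Edn1* higher and *Ece1*, *Ednra*, *Ednrb* and *Npr3* lower in ascending fibroblasts, against 36.3% of 13678 genes (18.1% higher, 18.2% lower).

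The third question was whether the response to TGFβ differed between sites, which the interaction of site and treatment tests. None of the 9 genes was called by edgeR, against 0.806% of 14637 genes (0.321% higher, 0.485% lower). At an unadjusted p under 0.05 there were 3, *Ece1*, *Ednra* and *Ednrb*, and DESeq2 called 1, *Ednrb* (adjusted p = 0.0243). Without descending control replicate 3, edgeR called 4, *Ednra* with a positive and *Ece1*, *Ednrb* and *Npr3* with a negative interaction, against 13.5% of 15013 genes. A positive interaction means that the log2 change of the ascending cultures minus that of the descending cultures was above 0.

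**Figure D3:**
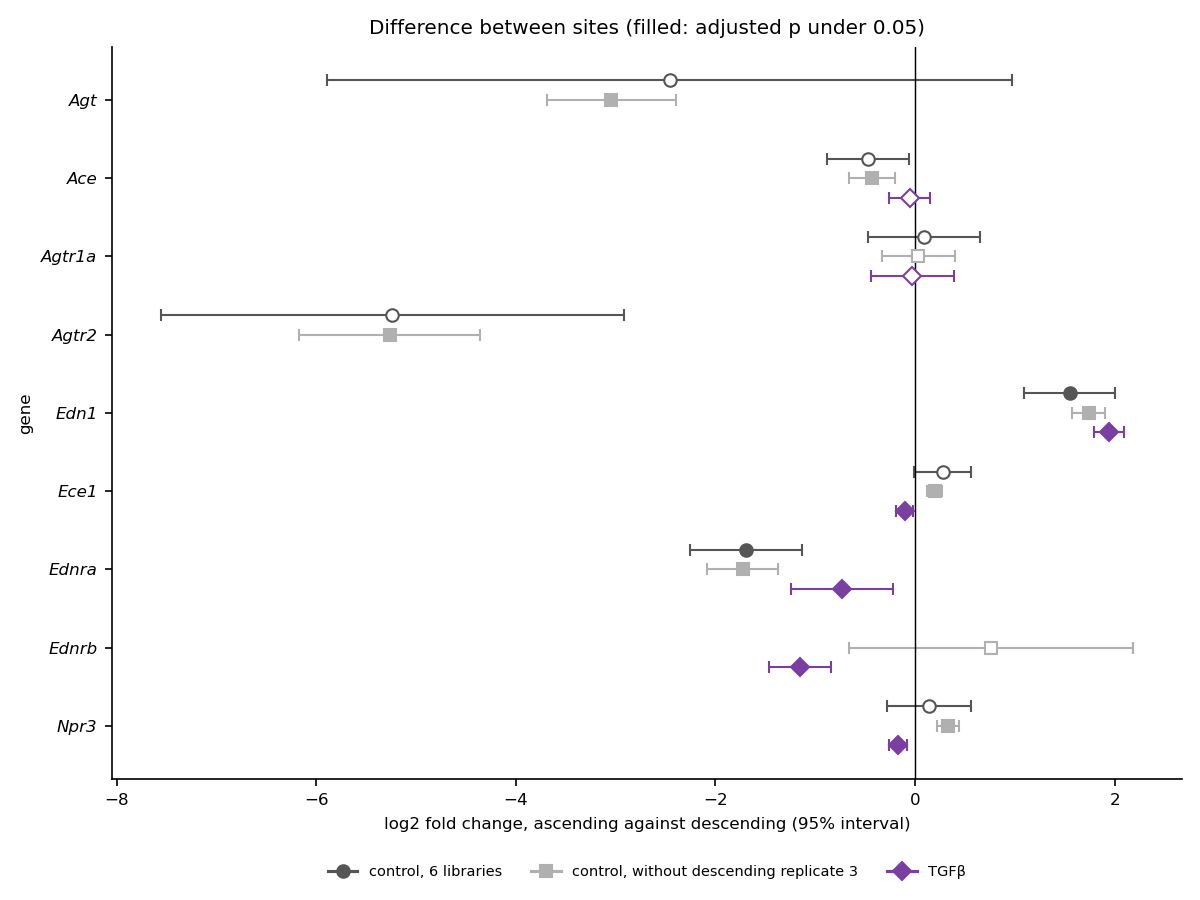
Log2 fold change of ascending against descending fibroblasts (x axis) for each gene (y axis), with its 95% interval, in control cultures with and without descending control replicate 3 and in TGFβ cultures. Filled symbols passed an adjusted p of 0.05, and a gene with no symbol was not tested. *Edn1* lies to the right of 0 in all 3 fits, and *Ednra* to the left.

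The precursor of the angiotensin system was scarce. *Agt* (chr8:124556534-124569706, minus strand) was at 4.47 and 3.99 normalized CPM in descending control replicates 1 and 2, from 115 and 92 counts, and had no count in replicate 3. It was at 0.663, 0.434 and 0.378 in descending TGFβ, at 0.348, 0.449 and 0.730 in ascending control, and at 0.104, 0.236 and 0.0974 in ascending TGFβ. The first pair of descending control libraries lay above all others, and the third below all others, so with all 3 the groups overlapped. With 3 libraries the difference with TGFβ in descending fibroblasts was -2.52 ± 1.39 (adjusted p = 0.335) and that of ascending against descending control -2.46 (adjusted p = 0.506). Without replicate 3 these were -3.09 ± 0.30 (adjusted p = 3.96e-10) and -3.04 ± 0.30 (adjusted p = 2.83e-06), both called. In TGFβ cultures *Agt* was below the filter, and its 29 counts in descending and 9 in ascending libraries gave a ratio of 3.31 (95% counting interval 1.53 to 7.95).

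*Ace*, which forms angiotensin II, was the most abundant of the 4 angiotensin genes per kilobase and fell with TGFβ at both sites. It was at 36.2, 37.9 and 40.4 normalized CPM in descending control and at 17.1, 19.1 and 15.6 in descending TGFβ. In ascending fibroblasts it was at 23.6, 33.0 and 25.5 in control and at 15.1, 15.3 and 19.4 with TGFβ. At neither site did the treated and control libraries overlap. *Ace* was 2.22-fold lower with TGFβ in descending fibroblasts (log2 -1.15 ± 0.14, adjusted p = 0.00788, and -1.10 without replicate 3) and 1.65-fold lower in ascending fibroblasts (-0.72 ± 0.12, adjusted p = 5.20e-05). The descending call was lost without any 1 descending TGFβ library (adjusted p of 0.0555 to 0.0796). The order of the means was descending control (38.2 ± 2.12, SD, n = 3), ascending control (27.4 ± 5.00), descending TGFβ (17.3 ± 1.77) and ascending TGFβ (16.6 ± 2.41).

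The control groups did not overlap either, with every descending library above every ascending one, but the difference of -0.47 ± 0.17 was not called (adjusted p = 0.302). It was called without replicate 3 (-0.43 ± 0.11, adjusted p = 0.00761). With TGFβ the sites differed by -0.05 ± 0.10 (95% interval -0.26 to 0.15, adjusted p = 0.729). The interaction was 0.42 ± 0.22 (adjusted p = 0.552), and 0.38 ± 0.16 without replicate 3 (adjusted p = 0.125). *Ace* is also made by macrophages and endothelium. The 6 macrophage markers summed to 342 normalized CPM in ascending control replicate 2, the ascending control library with the most *Ace*, against 53.0 and 58.3 in the other two, 29.3 to 41.4 in ascending TGFβ, 27.5 to 48.0 in descending control and 14.7 to 26.9 in descending TGFβ. All 6 were called lower with TGFβ in ascending fibroblasts, against 27.6% of all genes called lower. In descending fibroblasts 0 of 5 tested were called, against 8.07% of all genes. Without replicate 3, 4 of 6 were called, all lower, against 52.9% of all genes called in either direction. The part of macrophages in the *Ace* levels was not tested. An antisense gene, *Gm11651*, overlaps 5.58% of the *Ace* exon bases, and no source states whether reads were counted by strand.

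*Agtr1a*, a type 1 receptor, was called in no comparison. It was at 4.39, 4.12 and 3.72 normalized CPM in descending control, 3.47, 4.39 and 2.93 in descending TGFβ, 4.39, 4.19 and 4.38 in ascending control, and 4.18, 3.78 and 2.58 in ascending TGFβ. The groups overlapped, except that the lowest ascending control library lay just above the highest ascending TGFβ library. The change with TGFβ was -0.31 (95% interval -0.71 to 0.10) in ascending and -0.19 (-0.86 to 0.48) in descending fibroblasts, or -0.25 (-0.65 to 0.15) without replicate 3, and the site difference was 0.09 (-0.47 to 0.65) in control, or 0.03 (-0.33 to 0.40) without replicate 3, and -0.03 (-0.44 to 0.39) with TGFβ. These intervals are wide, so the data do not show equal levels.

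*Agtr2*, the type 2 receptor, was a descending control gene in these cultures. Its counts in descending control were 302, 303 and 174, or 11.7, 13.1 and 12.0 normalized CPM, and replicate 3 lay between the other two. With TGFβ the descending libraries held 0, 3 and 1 counts, all at or under the floor. Ascending control held 2, 1 and 17 counts (0.0869, 0.0499 and 0.828 normalized CPM), and ascending TGFβ held 0 in each of its 3 libraries. Descending control thus overlapped no other group.

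The descending control libraries had 182 times the level of the TGFβ libraries (95% counting interval 70.9 to 670, from 779 against 4 counts), and the fitted change was called (-7.38 ± 0.69, adjusted p = 0.00376). With each library left out it was -8.65 (without descending TGFβ replicate 2) to -6.82 (without descending TGFβ replicate 1). Against ascending control the level was 39.1-fold higher (25.2 to 64.4, from 779 against 20 counts). The test of that site difference just missed the threshold (-5.24 ± 0.95, adjusted p = 0.0539) and passed it without descending control replicate 3 (-5.26 ± 0.42, adjusted p = 3.52e-07) and with DESeq2 (adjusted p = 2.02e-08). Of the 20 ascending control counts, 17 came from replicate 3, and without that library the difference was -7.34 (adjusted p = 0.0253). Without any 1 of the remaining 4 libraries it was not called, with a change as small as -4.74 and an adjusted p up to 0.260. *Agtr2* was below the filter in both comparisons with ascending TGFβ, and its interaction had an SE of 5.23, so a difference in response between sites was not detectable at this depth.

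Scaled by exon length, *Agtr2* made up 69.1, 72.8 and 73.0% of the summed *Agtr1a* and *Agtr2* level in descending control (mean 71.6 ± 2.16, SD, n = 3). The share was 0, 3.01 and 1.33% in descending TGFβ, 1.63, 0.987 and 13.7% in ascending control, and 0% in all ascending TGFβ libraries. With *Agtr1b*, the other rodent type 1 receptor, added to the sum, the *Agtr2* share in descending control was 38.2, 36.2 and 51.3%, so *Agtr2* exceeded *Agtr1a* there but not both type 1 receptors in 2 of the 3 libraries. In the other 9 libraries it was at most 10.1% of that sum.

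**Figure D4:**
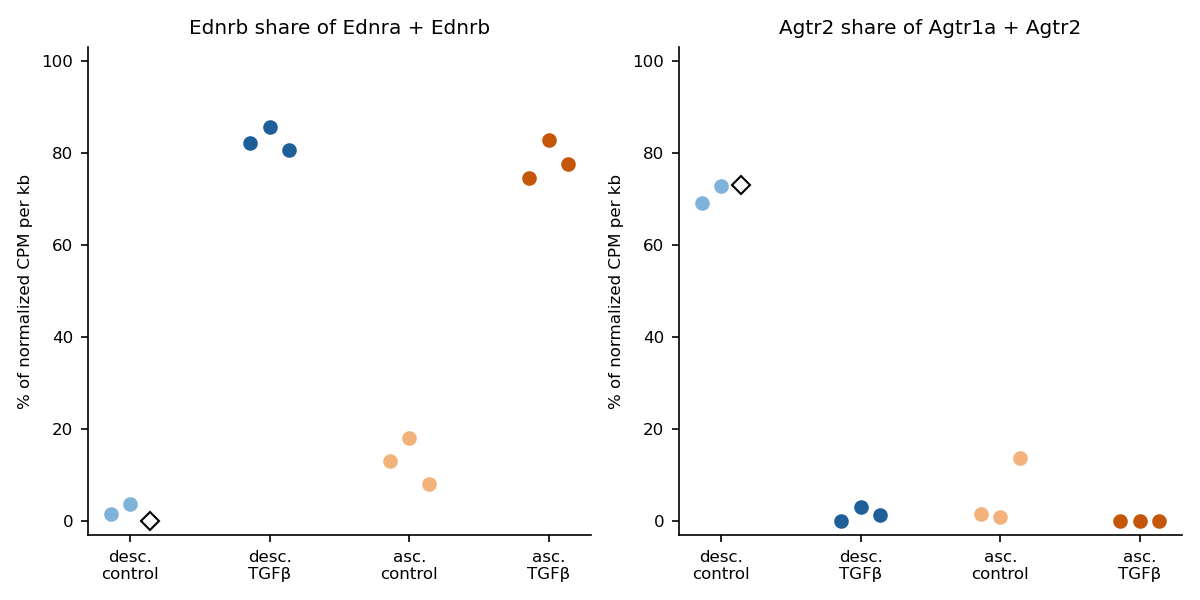
Share of *Ednrb* in the summed *Ednra* and *Ednrb* level (left) and of *Agtr2* in the summed *Agtr1a* and *Agtr2* level (right), in percent of normalized CPM per kb (y axis), for the 3 libraries of each group. The open diamond is descending control replicate 3. The *Ednrb* share was between 0 and 18.1% in the control libraries and between 74.5 and 85.7% in the TGFβ libraries.

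The endothelin ligand differed by site and not detectably by treatment. *Edn1* was at 46.1, 46.0 and 42.5 normalized CPM in ascending control and at 47.7, 45.3 and 48.7 in ascending TGFβ. In descending fibroblasts it was at 12.8, 14.4 and 19.0 in control and at 13.1, 11.8 and 12.0 with TGFβ. Every ascending library lay above every descending one, and within a site the treatments overlapped. *Edn1* was 2.93-fold higher in ascending than in descending control (1.55 ± 0.19, adjusted p = 0.0154, and 1.74 ± 0.08, adjusted p = 7.27e-10 without descending control replicate 3, but an adjusted p of 0.0622 to 0.127 without any 1 of the other 5 libraries) and 3.84-fold higher in TGFβ cultures (1.94 ± 0.07, adjusted p = 5.52e-19). The change with TGFβ was 0.07 in ascending (95% interval -0.05 to 0.18, adjusted p = 0.305) and -0.33 in descending fibroblasts (-0.82 to 0.16, adjusted p = 0.377). Without replicate 3 the latter was -0.14 (-0.37 to 0.09).

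Endothelium is the classical source of endothelin-1, and its markers were low. *Pecam1* reached at most 0.300 and *Cdh5* at most 0.260 normalized CPM in any library, and *Tie1* had no count in any. The sum over the 8 endothelial markers was 24.4 to 28.1 in ascending control, 23.9 to 26.8 in descending control, 12.4 to 15.1 in descending TGFβ and 8.405 to 10.4 in ascending TGFβ, and *Tek* made up 45.1 to 95.6% of its group means. The part of endothelial cells was not tested. The sum over the 5 mesothelial markers was higher in ascending cultures, at 85.3 to 101 in control and 48.5 to 57.9 with TGFβ, against 23.2 to 28.9 in descending ones. *Lrrn4* was 0 in every descending library, while *Krt19* of the same list went the other way, with group means of 10.0 and 12.3 in descending and 3.71 and 3.57 in ascending cultures. The part of mesothelial cells in the *Edn1* difference was not tested. In such bulk cultures, fewer cells of a type and less RNA per cell cannot be told apart.

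*Ece1*, which activates the endothelin precursor, fell with TGFβ. It was at 464, 461 and 461 normalized CPM in ascending control and at 285, 298 and 281 in ascending TGFβ, with no overlap, a 1.61-fold decrease (-0.69 ± 0.03, adjusted p = 6.59e-12). In descending fibroblasts it was at 405.6, 408.3 and 334.9 in control and at 301, 328 and 302 with TGFβ. These groups did not overlap, but replicate 3 came close to the treated libraries, and the change of -0.31 ± 0.12 was not called (adjusted p = 0.201). Without that replicate it was -0.39 ± 0.05 (adjusted p = 1.01e-07).

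In control cultures *Ece1* was higher in ascending fibroblasts by 0.28 (adjusted p = 0.405), or by 0.20 ± 0.04 without replicate 3 (adjusted p = 0.000628). With TGFβ it was lower in ascending fibroblasts by 0.10 ± 0.04 on the log2 scale, at the edge of the threshold (log2 -0.10, adjusted p = 0.0447). The interaction was -0.38 ± 0.12 (adjusted p = 0.275), and without replicate 3 it was -0.29 ± 0.06 (adjusted p = 0.000593).

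*Ednra*, the type A receptor, was highest in descending control and fell with TGFβ at both sites. Its levels were 12.3, 14.0 and 12.1 normalized CPM in descending control, 2.50, 2.28 and 2.32 in descending TGFβ, 3.34, 4.94 and 3.55 in ascending control, and 1.72, 1.23 and 1.31 in ascending TGFβ. No group overlapped another. The decrease with TGFβ was 5.44-fold in descending fibroblasts (-2.44 ± 0.19, adjusted p = 0.00200, and -2.47 ± 0.15 without replicate 3) and 2.78-fold in ascending fibroblasts (-1.48 ± 0.24, adjusted p = 5.13e-05).

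Ascending fibroblasts had 3.24-fold less *Ednra* than descending ones in control (-1.69 ± 0.23, adjusted p = 0.0213, and -1.73 ± 0.16 without replicate 3, but an adjusted p of 0.0780 to 0.178 without any 1 of the other 5 libraries) and 1.66-fold less with TGFβ (-0.73 ± 0.25, adjusted p = 0.0209). The call with TGFβ was lost with DESeq2 (adjusted p = 0.0956) and in one fit to the 12 libraries (adjusted p = 0.0690). It was also lost without descending TGFβ replicate 1 or ascending TGFβ replicate 2 or 3 (adjusted p of 0.0657 to 0.0853). The interaction was 0.97 ± 0.29 (adjusted p = 0.221), and without replicate 3 it was 1.00 ± 0.28 (adjusted p = 0.0170). The site difference in TGFβ cultures rested on few counts, 86 in ascending and 140 in descending libraries in all. Of 7 smooth muscle markers, 1 was called lower in ascending control (*Acta2*, -0.63 ± 0.09, adjusted p = 0.0268), against 1.47% of all genes called lower. Without replicate 3 there were 5 lower and 2 higher, against 31.6% called in either direction. With TGFβ 5 were called lower in ascending cultures, against 18.2% of all genes called lower. *Myh11* was lower by the most (-2.25 ± 0.08, adjusted p = 6.62e-19), while *Des* differed by 0.83 ± 0.37 (adjusted p = 0.0864) and *Tagln* by 0.06 ± 0.09 (adjusted p = 0.667). Their sum was 1582 to 1696 normalized CPM in ascending control against 2511 to 2556 in descending control, and 5108 to 5195 against 7961 to 8382 with TGFβ, with 90.7 to 96.0% of the group means from 1 gene. The part of smooth muscle cells in the *Ednra* levels was not tested.

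*Ednrb*, the type B receptor, went the other way. It had 4, 10 and 0 counts in descending control and 9, 17 and 5 in ascending control. With TGFβ it had 176, 196 and 159 counts in descending and 75, 98 and 73 in ascending fibroblasts, or 8.98, 10.6 and 7.51 and 3.92, 4.63 and 3.55 normalized CPM. Every treated library lay above every control library, and every descending TGFβ library above every ascending one.

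*Ednrb* rose 8.13-fold with TGFβ in ascending fibroblasts (3.02 ± 0.32, adjusted p = 4.90e-07), or by 3.62 on the log2 scale without ascending control replicate 2, which held 17 of the 31 control counts. In descending fibroblasts the ratio was 40.5 (95% counting interval 23.9 to 74.7, from 531 against 14 counts), with a fitted change of 5.38 ± 0.84 (adjusted p = 0.0170), of 4.94 ± 0.30 without control replicate 3 (adjusted p = 1.04e-14) and of 6.52 without control replicate 2. The descending call was lost without control replicate 1 (adjusted p = 0.0762) and without any 1 descending TGFβ library (adjusted p of 0.101 to 0.117). With TGFβ it was 2.22-fold lower in ascending than in descending fibroblasts (-1.15 ± 0.15, adjusted p = 4.26e-07). In control the gene was below the filter, and without replicate 3 the site difference was 0.76 (95% interval -0.66 to 2.19, adjusted p = 0.428). The interaction was -2.34 ± 0.85 (adjusted p = 0.362) with all libraries and -1.91 ± 0.56 (adjusted p = 0.0228) without replicate 3.

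Scaled by exon length, *Ednrb* made up 1.59, 3.82 and 0% of the summed endothelin receptor level in descending control and 13.05, 18.1 and 8.08% in ascending control. With TGFβ it made up 82.2, 85.7 and 80.6% in descending and 74.5, 82.9 and 77.6% in ascending fibroblasts. The larger part of the summed transcript level was thus *Ednra* in every control library and *Ednrb* in all 6 treated libraries.

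Several cell types that can express *Ednrb* were checked by their markers. Of the endothelial list, *Erg* rose along with it, from 0 counts in the descending control libraries and at most 4 in ascending control to 55 to 70 counts in descending TGFβ and 62 to 108 in ascending TGFβ, while *Pecam1* and *Cdh5* stayed at or near the floor and *Tek* fell (-2.56 in ascending and -1.51 in descending fibroblasts, adjusted p = 1.89e-12 and 0.00403, and -1.50 in the latter without replicate 3). Of the Schwann cell and melanocyte list, *Sox10* had no count in any descending library, and the sum over the 6 genes was 12.96 to 15.4 normalized CPM in descending TGFβ against 19.3 to 34.7 in descending control. Of the 4 pericyte markers, whose sum was 426 to 494 in descending TGFβ against 66.7 to 182 in descending control and 215 to 233 in ascending TGFβ against 109 to 119 in ascending control, *Cspg4* gave 90.8 to 93.9% as a group mean. *Rgs5* rose with TGFβ in ascending (1.48 ± 0.11, adjusted p = 6.56e-09) and descending fibroblasts (2.28 ± 0.38, adjusted p = 0.0199, and 1.97 ± 0.09 without replicate 3), *Cspg4* rose in ascending fibroblasts (0.94 ± 0.04, adjusted p = 1.17e-11) and differed by 1.65 ± 0.39 in descending ones (adjusted p = 0.0581, and 1.32 ± 0.06, adjusted p = 1.18e-17 without replicate 3), and both were lower in ascending than in descending TGFβ cultures (-1.21 and -1.04, adjusted p = 3.92e-14 and 2.47e-16). *Kcnj8* had at most 1 count in any library. The part of pericytes in the *Ednrb* rise was not tested.

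*Npr3*, the clearance receptor of the natriuretic peptides, was abundant and moved little. It was at 235, 255 and 258 normalized CPM in ascending control and at 217, 230 and 219 in ascending TGFβ, at 192, 208 and 279 in descending control, and at 234, 269 and 248 in descending TGFβ. The ascending groups did not overlap, and *Npr3* was 1.13-fold lower with TGFβ there (-0.17 ± 0.04, adjusted p = 0.00144). In TGFβ cultures it was 1.12-fold lower in ascending fibroblasts (-0.17 ± 0.04, adjusted p = 0.00259).

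Descending control replicate 3 had the most *Npr3* of all libraries and decided the remaining comparisons. With it, the change with TGFβ in descending fibroblasts was 0.14 ± 0.18 (adjusted p = 0.684) and the site difference in control 0.14 ± 0.17 (adjusted p = 0.709). Without it they were 0.33 ± 0.06 (adjusted p = 1.20e-05) and 0.33 ± 0.05 (adjusted p = 0.000240). The interaction went from -0.31 ± 0.18 (adjusted p = 0.567) to -0.49 ± 0.07 (adjusted p = 2.37e-05). Without that library, *Npr3* fell with TGFβ in ascending and rose in descending fibroblasts, and the 2 directions differed by the interaction test.

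Several direct partners of the 9 genes were absent or scarce. Renin (*Ren1*) and endothelin-3 (*Edn3*) had no count in any library, *Edn2* had 3 counts and *Mas1*, the receptor of angiotensin-(1-7), had 4 over the 12 libraries. The natriuretic peptides *Nppa*, *Nppb* and *Nppc* had 6, 52 and 9 counts, and *Npr1*, the receptor of the cardiac peptides, had 72. *Npr2*, the receptor of C-type natriuretic peptide, was by far the highest of these with 50550 counts. It fell with TGFβ in ascending (-0.64 ± 0.03, adjusted p = 3.49e-11) and descending fibroblasts (-0.54 ± 0.11, adjusted p = 0.0379, and -0.57 ± 0.05 without replicate 3), where the treated libraries held 151 to 172 normalized CPM and the control libraries 210 to 268.

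*Agtr1b*, the second rodent type 1 receptor, was called in all 4 comparisons of treatment or site. It was at 8.87, 11.7 and 4.48 normalized CPM in descending control, 1.68, 0.976 and 1.42 in descending TGFβ, 1.30, 1.70 and 1.36 in ascending control, and 0.261, 0.0946 and 0.292 in ascending TGFβ. It fell with TGFβ in descending (-2.62 ± 0.45, adjusted p = 0.0222, and -2.90 ± 0.20 without replicate 3) and ascending fibroblasts (-2.73 ± 0.41, adjusted p = 2.60e-05) and was lower in ascending fibroblasts in control (-2.52 ± 0.42, adjusted p = 0.0408, and -2.81 ± 0.20 without replicate 3) and with TGFβ (-2.64 ± 0.45, adjusted p = 2.04e-05). Of the 50-base sequences of the *Agtr1a* exons, 1.27% also occur in other genes, *Agtr1b* among them.

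Of the wider renin-angiotensin list of 19 genes, which holds the receptors' relatives and the peptidases that make or break angiotensins, 13 were tested for TGFβ in ascending fibroblasts, with 4 higher and 6 lower and a median log2 change of -0.17 against -0.00 over all genes, of which 55.8% were called. In descending fibroblasts 12 were tested, with 0 higher and 3 lower (median -0.18 against 0.02, with 8.07% of all genes called), and without replicate 3 there were 5 higher and 8 lower of 13 (median -0.32 against -0.01, with 52.9% called). Between sites 0 were higher and 2 lower of 14 in control, against 2.65% of all genes (3 and 6 without replicate 3, against 31.6%), and 4 higher and 3 lower of 11 with TGFβ, against 36.3%. Aminopeptidase N (*Anpep*), which trims angiotensin III, fell in ascending (-1.14 ± 0.08, adjusted p = 2.94e-09) and descending fibroblasts (-0.91 ± 0.16, adjusted p = 0.0253, and -0.82 ± 0.10 without replicate 3). The prolyl peptidases *Prep* (0.37 ± 0.04) and *Prcp* (0.34 ± 0.05) rose in ascending fibroblasts. In descending ones they changed by 0.71 ± 0.17 and 0.17 ± 0.16 (adjusted p = 0.0587 and 0.565), and by 0.57 ± 0.06 and 0.33 ± 0.06 without replicate 3, where both were called.

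Neprilysin (*Mme*), which degrades angiotensins, endothelins and natriuretic peptides, was the gene of this list with a called interaction (1.84 ± 0.30, adjusted p = 0.0195, and 1.54 ± 0.17 without replicate 3). It was between 19.4 and 33.6 normalized CPM in descending control and between 5.00 and 6.39 in every other library. It fell with TGFβ in descending fibroblasts (-2.02 ± 0.27, adjusted p = 0.0104, and -1.70 ± 0.11 without replicate 3), and in ascending fibroblasts its change was -0.17 ± 0.15 (adjusted p = 0.357).

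Of the 5 other endothelin genes only *Ece2* and *Ecel1* were tested. *Ecel1*, a relative of *Ece1*, was lower with TGFβ in ascending fibroblasts (-0.54 ± 0.21, adjusted p = 0.0361) and higher in ascending than in descending TGFβ cultures (2.15 ± 0.28, adjusted p = 3.78e-07). In control its site difference was 3.28 ± 1.00 (adjusted p = 0.223), and 2.75 ± 0.31 without replicate 3 (adjusted p = 1.06e-05). No comparison called *Ece2*. Of the 17 natriuretic peptide and cGMP genes, 4 rose and 5 fell of 10 tested with TGFβ in ascending fibroblasts (median -0.10 against -0.00, with 55.8% of all genes called), and 1 rose and 4 fell of 11 in descending fibroblasts (median -0.53 against 0.02, with 8.07% called). Without replicate 3, the latter were 3 and 5 of 11, against 52.9% of all genes, and the median turned to 0.09 against -0.01. Between sites in control, 1 was higher and 2 lower in ascending fibroblasts of 10 tested, against 2.65% of all genes. Without replicate 3 these were 3 and 6 of 11, against 31.6%. In TGFβ cultures 4 were higher and 4 lower of 10, against 36.3%. The interaction called 1 of 11, *Pde3b* (2.16 ± 0.34, adjusted p = 0.0186), against 0.806%. Without replicate 3 it called 3 positive and 1 negative of 11, against 13.5%. The soluble guanylate cyclase subunits *Gucy1a1* and *Gucy1b1*, which together form 1 enzyme that makes cGMP, moved apart with TGFβ at both sites. In ascending fibroblasts *Gucy1b1* rose (1.04 ± 0.08, adjusted p = 3.66e-09) and *Gucy1a1* fell (-2.63 ± 0.23, adjusted p = 3.72e-08), as they did in descending fibroblasts, *Gucy1b1* up (1.16 ± 0.18, adjusted p = 0.0172, and 1.24 ± 0.14 without replicate 3) and *Gucy1a1* down (-3.38 ± 0.41, adjusted p = 0.00786, and -3.24 ± 0.32). A further subunit, *Gucy1a2*, had higher group means than *Gucy1a1* in control (30.1 against 4.09 normalized CPM in descending, 11.1 against 5.11 in ascending). It fell by less in ascending fibroblasts (-0.64 ± 0.13, adjusted p = 0.000627). In descending ones its change was -0.73 ± 0.17 (adjusted p = 0.0582), and -0.59 ± 0.09 without replicate 3 (adjusted p = 2.53e-06). The cGMP phosphodiesterase *Pde5a* rose in ascending fibroblasts (1.07 ± 0.06, adjusted p = 7.17e-11), and in descending ones it changed by 0.58 ± 0.26 (adjusted p = 0.251), or by 0.92 ± 0.08 without replicate 3 (adjusted p = 3.45e-11).

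Of the 24 other vasoactive peptides and receptors, only 3 were tested for TGFβ in ascending and 4 in descending fibroblasts. The neuropeptide Y receptor *Npy1r* rose in both (1.25 ± 0.17, adjusted p = 7.22e-06, and 1.50 ± 0.27, adjusted p = 0.0266, or 1.34 ± 0.18 without replicate 3), and the peptide apelin (*Apln*) fell in ascending fibroblasts (-2.13 ± 0.28, adjusted p = 6.35e-06). Its change in descending fibroblasts was -0.61 ± 1.19 (adjusted p = 0.794), and -1.15 ± 0.37 without replicate 3 (adjusted p = 0.00965). Of the 21 signalling genes downstream of these receptors, 8 rose and 4 fell of 20 tested in ascending fibroblasts, near the 55.8% of all genes called there (median 0.02 against -0.00), and 2 rose and 1 fell of 20 in descending fibroblasts against 8.07% (median 0.05 against 0.02), or 6 and 4 of 20 without replicate 3 against 52.9% (median -0.04 against -0.01).

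*Rgs4* and *Rgs5*, which shorten signalling by Gq-coupled receptors, were the genes that rose in descending fibroblasts with all libraries. *Rgs4* went from 3.50, 4.42 and 10.8 normalized CPM in descending control to 119, 141 and 124 with TGFβ (4.36 ± 0.48, adjusted p = 0.00600, and 5.02 ± 0.10 without replicate 3), and from 0.738, 1.85 and 1.61 in ascending control to 18.3, 23.6 and 20.3 (3.91 ± 0.19, adjusted p = 2.27e-11). The treated and control libraries did not overlap at either site. *Arrb1*, which uncouples and internalizes receptors, fell at both sites (-1.58 ± 0.06 in ascending, adjusted p = 4.79e-13, and -1.14 ± 0.18 in descending fibroblasts, adjusted p = 0.0181, or -1.27 ± 0.08 without replicate 3).

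The genes whose levels most resembled those of a member were found by Pearson's r of log2 normalized CPM over the 12 libraries among 14637 genes, as a description. The libraries share 4 groups, which any such r reflects. *Ednra* was closest to *Gja1* (r = 0.990) and *Col6a2* (0.985), *Ednrb* to *Smyd3* (0.986) and *Plekhg2* (0.984), *Edn1* to *Serpinb6b* (0.987) and *Hand2* (0.986), and *Ece1* to *Lingo1* (0.995) and *Nid2* (0.982). *Agtr2* was closest to *Man2a1* (0.967) and *Marcks* (0.966), *Agt* to *Sqle* (0.965) and *Tle3* (0.957), and *Ace* to *Tgfbi* (0.961). *Npr3* (0.888 for *Epha7* and 0.873 for *Cdkn1c*) and *Agtr1a* (0.855 for *Plb1* and 0.849 for *Hagh*) had the lowest values.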

How the data were processed

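RNA of cultured fibroblasts was sequenced in 12 libraries. Paired-end reads were mapped by the authors to mm10 and counted per gene (STAR and featureCounts per the submitters' processing notes, versions not given in the sources used here). The deposited table holds these raw counts by symbol, 1 column for each library, not normalized. The labels gave site and treatment. Of 54352 symbols, 53753 (98.9%) matched GENCODE vM21 (GRCm38). Exon lengths, positions and shared 50-base sequences came from that annotation, and upstream bases from RefSeq (8 of 9 members matched).

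Tests were run with edgeR 4.0.16 in R 4.3.3 (quasi-likelihood test, TMM, filterByExpr at its minimum count of 10 and total of 15, Benjamini-Hochberg over all genes tested). Each comparison used the 6 libraries of its groups, and the interaction all 12. SE is the log2 fold change divided by the square root of F. Levels used TMM factors over the 12 libraries. Correlations used log2 CPM with a prior count of 2. Alternatives were DESeq2 1.42.0 (Wald test), its size factors in edgeR, no filter, at least 10 counts in every library, the replicate number as a block, a single fit to all 12 libraries, and leaving out each library singly. On simulated data with 200 genes changed by 2-fold or less, edgeR recovered at least 93% of the 2-fold ones in each of the 5 comparisons. At most 4.59% of calls were false. The simulated spread was near that of the other 3 groups (coefficient of variation 3.48 to 6.39%), not the 63.3% of descending control. Genes of low count were not among those changed. Recovery in comparisons with descending control, or of low-count members, was therefore not tested.

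The members and gene lists were chosen with earlier results of these data known. The genes named are the members, their direct partners, the 2 per list, direction and comparison with the smallest adjusted p under 0.05, and the 2 most like each member. A few items that this rule names are not reported here. The marker genes named, the type 2 receptor share with *Agtr1b*, and values of a named gene in comparisons where the rule did not name it, were added after their values were seen.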

Additional observations from a re-analysis of the deposited data

How the results depend on the processing

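Of the values of single members under an alternative, 455 kept their direction and side of the threshold, 36 lost and 18 gained a call, and 7 changed sign. Those 7 were uncalled values near 0 with a library left out, *Ace* (-0.18 to 0.022) and *Agtr1a* (-0.16 to 0.16) in the site comparison with TGFβ, and *Agtr1a* in the interaction (-0.26 to 0.064).

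For TGFβ in descending fibroblasts, members called went from 4 to 2 with at least 10 counts in every library and ranged from 2 to 7 with each library left out, the 7 without descending control replicate 3. The genes called in all went from 1115 to 2253 with DESeq2, 3570 with 12 libraries in one fit, and 213 to 7576 with each library left out. *Ace* and *Ednrb* lost their calls without any 1 descending TGFβ library, and *Ednrb* also without descending control replicate 1 (adjusted p up to 0.0796 and 0.117). In the site comparison in control, members called ranged from 0 to 7, and genes called from 33 to 4631, with 1034 by DESeq2 and 1545 in one fit. *Edn1* and *Ednra* lost their calls there without any 1 library other than descending control replicate 3 (adjusted p up to 0.127 and 0.178), and *Agtr2* was called without ascending control replicate 3 (adjusted p = 0.0253). For TGFβ in ascending fibroblasts the 5 members called stayed 5 with each library left out. With 12 libraries in one fit 4 were called, with *Npr3* lost (adjusted p = 0.493), and 2338 genes in all. In the site comparison with TGFβ, members called went from 5 to 3 with DESeq2, 1 in one fit (1106 genes) and 3 without ascending TGFβ replicate 3, where *Ednra* and *Ece1* lost theirs. *Ednra* also lost it without descending TGFβ replicate 1 or ascending TGFβ replicate 2, and *Ece1* without descending TGFβ replicate 2 or ascending TGFβ replicate 1 (adjusted p up to 0.0853 and 0.209). In the interaction, members called were 1 with DESeq2 and 0 to 4 with each library left out, and genes called were 425 with DESeq2, 56 with no filter and 25 to 2022. Where no value shows the cause of a change, the cause was not tested.

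Libraries with the same replicate number deviated together weakly at most (r from -0.03 to 0.09 over 18 pairs, none over 0.1). Of the 12 libraries, 8 were closest to their own number, more than random numbering would give on average. The main tests did not pair the libraries, and this check does not exclude pairing. With the replicate number as a block, 0 members were called for TGFβ in descending fibroblasts (95 genes) and 0 in the site comparison in control (0 genes), and the interaction called 50 genes. Genes under 10 counts a library, *Agt*, *Agtr2* and *Ednrb* in some groups, are limited by depth.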
